A study of Homo sapiens and Mus musculus with 22 samples.

Results

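RPP-A and RPP are a pair of mouse small cell lung cancer lines, and their transcriptomes were compared over 6 of the 22 libraries of the series, with all mouse genes as the readout. RPP-A (631RPP-A in the labels, MHC class I status high, 3 libraries) was selected from RPP for growth attached to tissue-culture plastic, and RPP (631RPP, MHC class I status low or negative, 3 libraries) is its parent. Neither line was sorted or treated before RNA was taken. The deposited mouse table names its columns RPPM1, RPPM2 and RPPM3, taken here as RPP-A, and EHK_RPP4, RPP1 and RPP2, taken as RPP. In the small cell lung cancer field, RPP names tumours of mice in which Rb1, Trp53 and Rbl2 are deleted in the lung. The labels do not spell out the alleles of these lines, and whether both carry the same deletions was not tested. The comparison holds 1 line of each kind. The labels do not say whether the 3 libraries of a line came from separate cultures, so the p-values below rest on a spread that may be technical only.

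Small cell lung cancer is a neuroendocrine carcinoma. Most of its cells grow in floating clusters, depend on lineage transcription factors such as NEUROD1, and carry the secretory granules and synaptic proteins of neuroendocrine cells. A minority of tumours and cell lines have lost this programme, attach to plastic, express REST, YAP1, AXL and vimentin, and show more MHC class I on their surface. MHC class I presents peptides of intracellular proteins to CD8+ T cells. Peptides cut by the proteasome are carried into the endoplasmic reticulum by TAP and loaded onto a heavy chain paired with B2m, and interferons induce nearly every step through IRF1 and NLRC5.

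Levels are CPM, a gene's read count for each 1000000 counts of the TMM-scaled library size, and values of single libraries stand in the order RPPM1, RPPM2, RPPM3 for RPP-A and EHK_RPP4, RPP1, RPP2 for RPP. A log2 fold change is RPP-A minus RPP with its standard error after ±, and where a gene is said to have risen by a value, that value is its log2 fold change, and the ± of a level is the SD over 3 libraries. A gene is said to have risen or fallen where the adjusted p of edgeR's quasi-likelihood test over all tested genes was below 0.05. Levels depend on transcript length and capture, so they are compared between lines and not between genes. Of 24047 genes in the table, 14032 passed the count filter and were tested.

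The lines differed across most of the transcriptome. Of the tested genes, 10975 were called, which is 78.2%. In RPP-A, 5274 genes rose (37.6%) and 5701 fell (40.6%), and 7016 changed at least 2-fold (50%), 3218 upward and 3798 downward. At least 10-fold were 1197 rises and 1909 falls. The 3 values of one line all lay above the 3 of the other for 82.3% of tested genes, so non-overlap of a gene's values is the common case here and is read against that share. Rises and falls counted within a gene list are likewise read against the 37.6% and 40.6% of all tested genes. The median log2 fold change was -0.04. With library totals in place of TMM, the median was -0.40 and the split was 3962 rises against 7290 falls, so small changes near the diagonal take their direction from the scaling. No gene called under both scalings changed its direction.

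**Figure D1:**
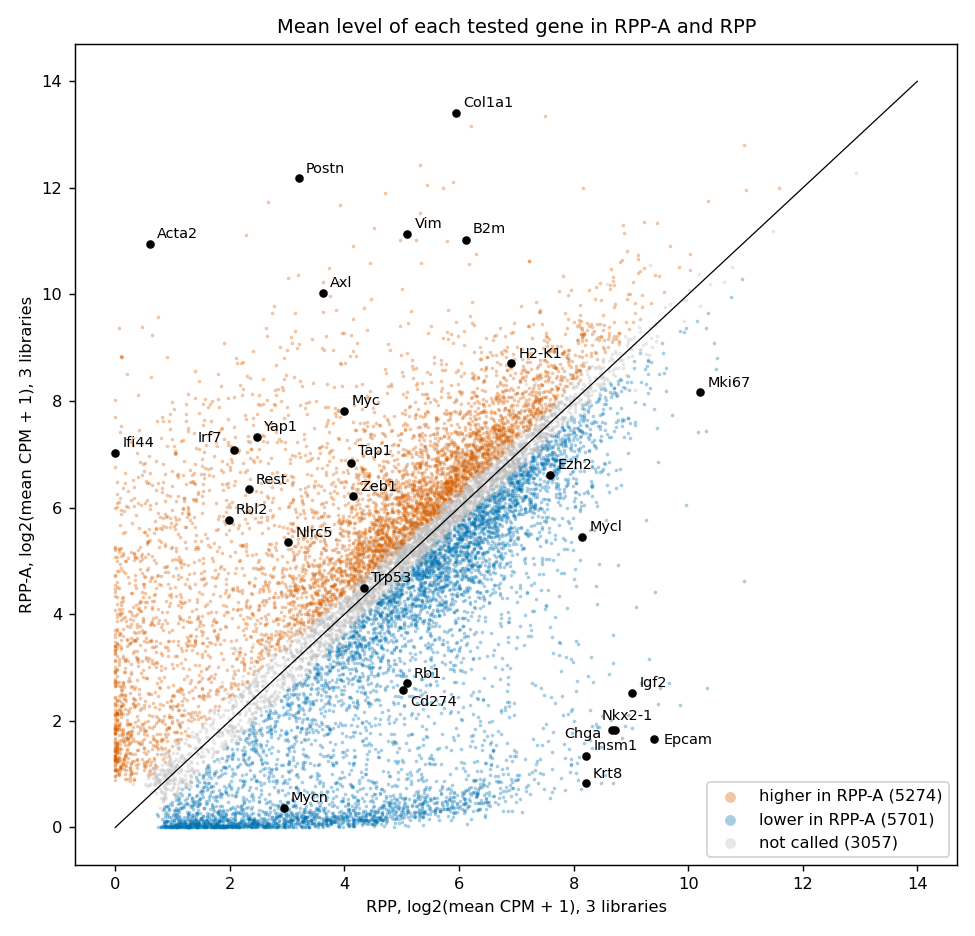
Each point is a tested gene, with its mean level in RPP-A on the vertical axis and in RPP on the horizontal axis, both as log2(mean CPM + 1) over 3 libraries. Genes above the diagonal were higher in RPP-A. B2m, Axl, Vim and Col1a1 lie far above it, Epcam, Krt8 and Igf2 far below it, and Trp53 on it.

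Library totals ranged between 16693491 and 19973785 counts in RPP-A and between 10817795 and 12826799 in RPP. Principal component analysis of log2 CPM put 96.8% of the variance on an axis that separated the lines. RPPM1 and RPPM2 differed by little more than counting noise, with a chi-square of 1.33 per degree of freedom and 0 genes over 2-fold apart, and RPPM3 was over 2-fold from them at 0.919% to 0.969% of tested genes. RPP1 and RPP2 had 1 gene over 2-fold apart. EHK_RPP4 stood apart from both, at 4.18% and 4.23% of genes, and carried 1.63% of its counts on the ribosomal RNA gene Rn45s, where the other libraries had 0.353% to 0.685%. Without EHK_RPP4, 5680 genes rose and 5821 fell, and 10770 of the called genes were shared with the fit of all 6 libraries. Among the 14032 genes tested in both fits, 205 were called only with EHK_RPP4 in and 470 only without it.

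Most genes of MHC class I presentation rose in RPP-A, among them immunoproteasome subunits, the peptide transporter, heavy chains and B2m. B2m, the invariant light chain, had 1755, 1848 and 2609 CPM in RPP-A, against 65.1, 73.1 and 66.5 CPM in RPP. All 3 RPP-A libraries lay far above all 3 RPP libraries, and RPPM3 was the highest. B2m rose by a log2 fold change of 4.92 ± 0.20 (adjusted p = 4.91e-07), and by 4.94 without EHK_RPP4. The classical heavy chain gene H2-K1 had 444, 457 and 354 CPM in RPP-A, against 105, 124 and 129.7 CPM in RPP (log2 fold change 1.81 ± 0.14). Its partner locus H2-D1 had 220.5, 222 and 195 CPM in RPP-A, against 63.9, 66.8 and 71 CPM in RPP (log2 fold change 1.66 ± 0.10). Both groups of values were apart, with log2 fold changes smaller than that of B2m. Reads of H2 genes can fall on near-identical relatives, so the split of counts between heavy chains is uncertain.

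Of 11 tested genes for heavy chains and B2m, 9 rose, 1 fell and 1 was not called, with a median log2 fold change of 2.44 where all tested genes had -0.04. The other 7 of the 18 listed genes did not pass the filter. Among non-classical chains, Mr1, which presents vitamin B metabolites to MAIT cells, averaged 27.8 ± 7.66 CPM in RPP-A and 0.342 ± 0.423 CPM in RPP. H2-T23, the ligand of NKG2A on NK cells, averaged 83.4 ± 4.3 CPM in RPP-A and 11 ± 3.83 CPM in RPP, and H2-M3, which presents formylated peptides, averaged 20 ± 1.32 CPM in RPP-A and 3.66 ± 0.911 CPM in RPP. H2-T24 had 1315 counts in RPP-A and 2 in RPP, a ratio of 558 with a 95% counting interval of 154 to 4615. H2-Q2 was the member that fell, with 0.0678, 0.115 and 0 CPM in RPP-A, against 4.98, 4.02 and 4.71 CPM in RPP. Cd1d1, which presents lipids to NKT cells, had 7.78 against 7.77 CPM on average and was not called.

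In the loading complex, 8 of 9 genes rose and none fell. Tap1, a subunit of the peptide transporter, had 121, 126 and 95.4 CPM in RPP-A, against 14.4, 17.4 and 17.2 CPM in RPP. Tap2, the other subunit, had 99.9, 105 and 93.9 CPM in RPP-A, against 9.87, 18.2 and 18.8 CPM in RPP. Tapbp, which bridges the transporter to the heavy chain, had 543, 567 and 517 CPM in RPP-A, against 52.9, 60.3 and 61.4 CPM in RPP. All 3 genes held their groups apart, with log2 fold changes of 2.80 ± 0.14 for Tap1, 2.67 ± 0.22 for Tap2 and 3.22 ± 0.11 for Tapbp. The chaperones Calr, Pdia3 and Canx rose by 1.87, 1.63 and 0.95. Erap1, which trims peptides, had a log2 fold change of 0.42 ± 0.24 and was not called with all libraries. Without EHK_RPP4 it was called higher, at 0.21.

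The immunoproteasome, a form of the proteasome with 3 exchanged catalytic subunits, rose in all 5 genes listed with its activator. Psmb8 had 189.7, 192 and 176 CPM in RPP-A, against 22.6, 36.7 and 35.5 CPM in RPP, and Psmb9 had 25.1, 25.9 and 22.2 CPM in RPP-A, against 4.57, 8.59 and 9.49 CPM in RPP. Psmb10 had 58.5, 55.3 and 54.3 CPM in RPP-A, against 5.14, 5.96 and 5.84 CPM in RPP. EHK_RPP4 was the lowest RPP library for Psmb8 and Psmb9. Their log2 fold changes were 2.55 ± 0.18 for Psmb8, 1.68 ± 0.25 for Psmb9 and 3.31 ± 0.11 for Psmb10. Of the constitutive subunits that these replace, Psmb5 rose by 0.64 ± 0.11, Psmb7 by 0.27 ± 0.09, and Psmb6 was not called at -0.02 ± 0.10. Psmb7 was not called without RPPM1 or without RPPM2. With library totals, 1 constitutive subunit was called higher and 1 lower.

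Of 19 regulators of class I and of interferon signalling, 15 rose and 2 fell. Nlrc5, the transactivator of class I promoters, had 45.1, 43.1 and 31.5 CPM in RPP-A, against 7.58, 6.72 and 7.1 CPM in RPP. Irf1, an early target of interferon receptors, had 119, 126 and 154 CPM in RPP-A, against 31.8, 23.9 and 25.1 CPM in RPP. Each was higher in every RPP-A library than in any RPP library, by log2 fold changes of 2.48 ± 0.17 for Nlrc5 and 2.30 ± 0.15 for Irf1. The largest rise in the list was that of Irf7, with 152, 155 and 99.8 CPM in RPP-A, against 2.45, 4.22 and 2.88 CPM in RPP (log2 fold change 5.39 ± 0.26). Receptor chains rose too: Ifnar2, of the type I receptor, averaged 165 ± 20.8 CPM in RPP-A and 8.87 ± 0.282 CPM in RPP, and Ifngr2, of the type II receptor, averaged 154 ± 21.4 CPM in RPP-A and 17.7 ± 4.68 CPM in RPP. Socs1, a feedback inhibitor, rose by 3.05. Irf8 fell with a log2 fold change of -2.70 ± 0.47 and Irf3 with -0.30 ± 0.09, a call that ended without RPPM1, RPPM2, RPP1 or RPP2, while Irf2, with 59.3 against 59.3 CPM on average, and Tyk2, with 20.5 against 22.8 CPM, were not called.

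**Figure D2:**
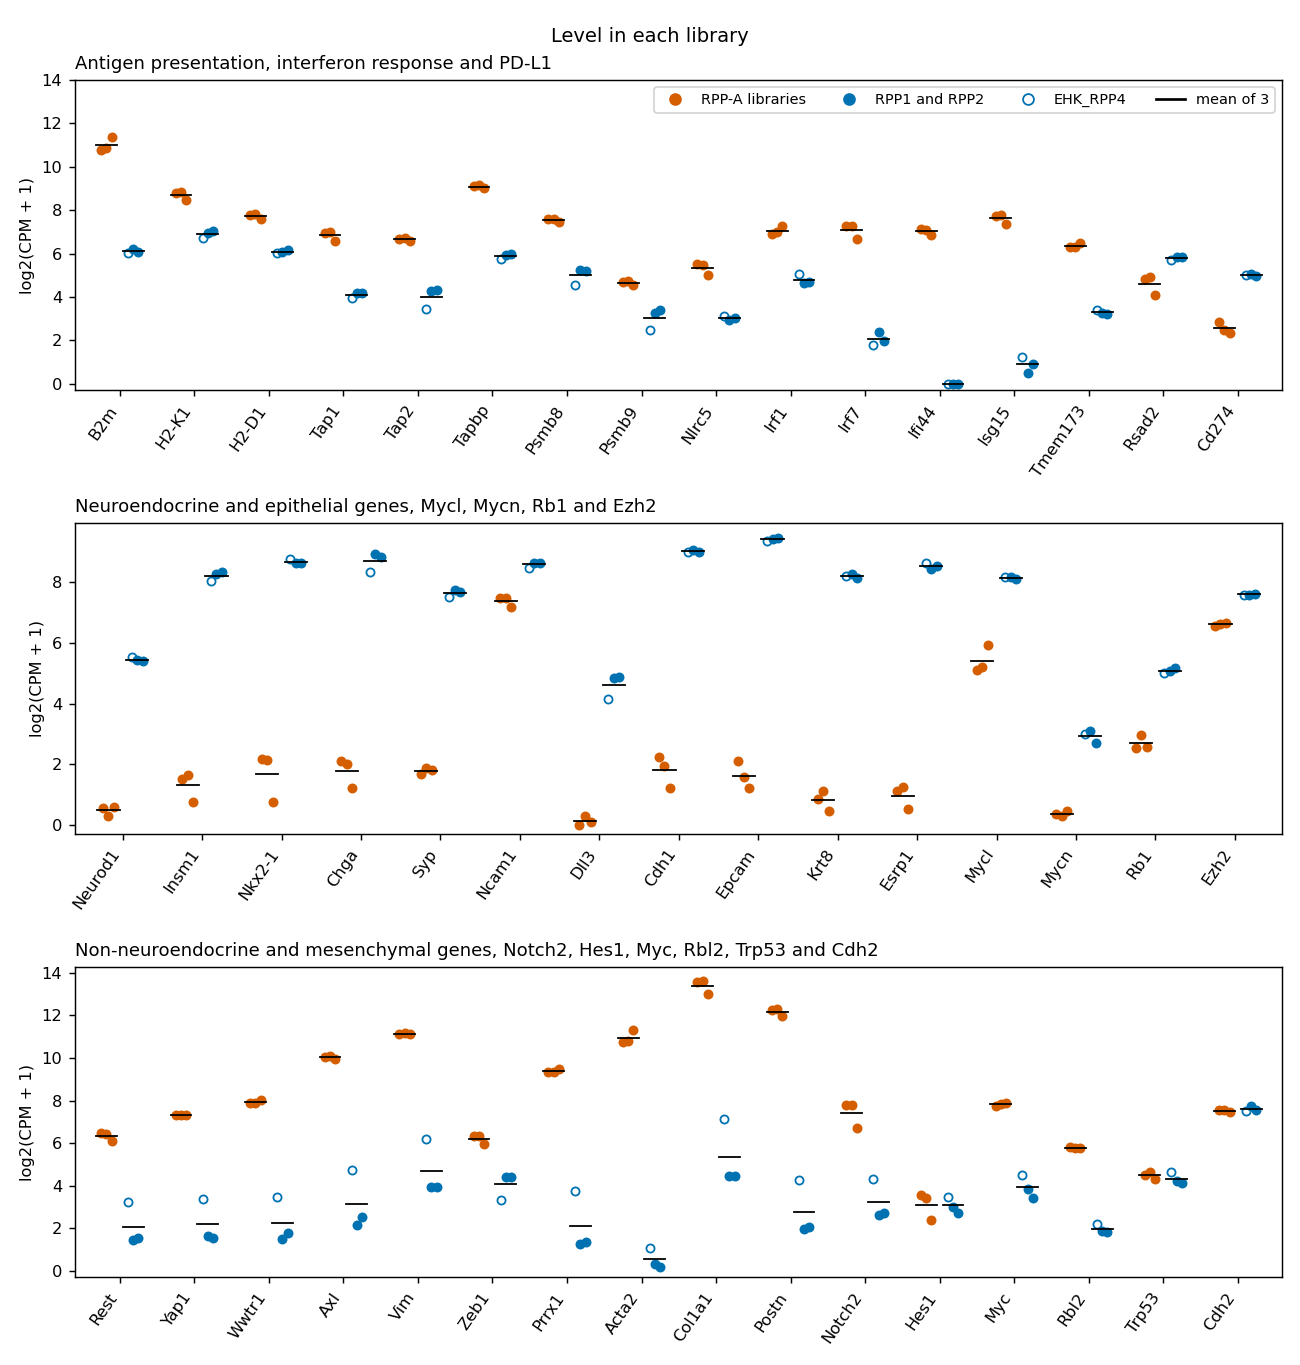
Level of named genes in each library as log2(CPM + 1), with RPP-A libraries at the left of each gene and RPP libraries at the right, EHK_RPP4 drawn open, and a bar at the mean of 3 log2 values. Antigen presentation and interferon genes sit higher in RPP-A except Rsad2 and Cd274, neuroendocrine and epithelial genes sit lower, and EHK_RPP4 lies above RPP1 and RPP2 for most of the non-neuroendocrine and mesenchymal genes.

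Interferon-stimulated genes rose in 45 of 48 tested members and fell in 2, with a median log2 fold change of 3.50. Summed over the list, they had 5944, 6032 and 5714 CPM in RPP-A, against 797, 928 and 934 CPM in RPP. Ifi44 had 139, 135 and 116 CPM in RPP-A and no count in the 3 RPP libraries, so it was at least 1769.5-fold higher, taking 3 counts over the RPP group as the floor. Isg15, a ubiquitin-like modifier, had 214, 217 and 162 CPM in RPP-A, against 1.39, 0.416 and 0.914 CPM in RPP (log2 fold change 7.79 ± 0.30). Iigp1, a GTPase that acts on vacuoles of intracellular parasites, had 161, 159 and 202 CPM in RPP-A, against 0, 0.416 and 0.563 CPM in RPP (log2 fold change 8.96 ± 0.37, 9.57 without RPP2). Ifit3, which belongs to a family that binds foreign RNA, and Rtp4 rose by 8.12 and 7.68. The values of these genes did not overlap between the lines. The members that fell were Rsad2, which encodes the antiviral enzyme viperin, with 27, 29 and 16.2 CPM in RPP-A, against 50.2, 56.1 and 55.8 CPM in RPP (log2 fold change -1.17 ± 0.21), and Cmpk2, a mitochondrial nucleotide kinase, with 18.8, 17.6 and 14.1 CPM in RPP-A, against 68.1, 94.5 and 90.5 CPM in RPP (log2 fold change -2.33 ± 0.17). Mx1, which blocks influenza viruses, had 11.4, 11.7 and 5.06 CPM in RPP-A, against 7.58, 4.57 and 3.73 CPM in RPP and was not called at 0.83 ± 0.38. The libraries of the lines overlapped for it.

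Sensors of foreign or misplaced nucleic acids rose in 15 of 17 members. Tmem173, which encodes STING, had 77, 78.6 and 89.7 CPM in RPP-A, against 9.54, 8.66 and 8.44 CPM in RPP (log2 fold change 3.20 ± 0.11). Mb21d1, which encodes cGAS, the enzyme upstream of STING, moved the other way, with 14.2, 15.2 and 14.4 CPM in RPP-A, against 36.5, 51.5 and 49.6 CPM in RPP (log2 fold change -1.65 ± 0.15). The RNA sensors Ddx58 (RIG-I) and Dhx58 rose by 5.48 ± 0.15 and 5.47 ± 0.25, and Zbp1, a sensor of Z-form nucleic acids, by 6.25 ± 0.30. Tlr2, a receptor for bacterial lipoproteins, averaged 36.6 ± 6.55 CPM in RPP-A and 0.963 ± 0.238 CPM in RPP. The kinase Tbk1, which acts downstream of STING and RIG-I, had 66.1 against 62.7 CPM on average and was not called.

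NF-kB subunits, their targets and cytokines rose in 29 of 30 tested members, with a median log2 fold change of 4.54, or 4.31 where a gene with no count in a line is set at its bound. Neutrophil chemokines stood at the top. Cxcl1 had 717, 732 and 854 CPM in RPP-A, against 2.04, 0 and 0 CPM in RPP (log2 fold change 10.24 ± 0.88, 9.64 without RPP1 and 9.64 without RPP2, and at least 7335-fold higher without EHK_RPP4), and Cxcl5 had 342, 340.1 and 691 CPM in RPP-A, against 0.163, 0.0693 and 0 CPM in RPP, or 22035 counts against 3, a ratio of 6237 with a counting interval of 2134 to 30245. RPPM3 was the highest for Cxcl5. Il33, an alarm cytokine of barrier tissues, was at least 512-fold higher. Il6 had 23.8, 23.1 and 18.4 CPM in RPP-A and 1 count in RPP. Ccl7, a monocyte chemokine, had 184, 175 and 174 CPM in RPP-A, against 2.77, 0.0693 and 0 CPM in RPP (log2 fold change 7.66 ± 0.73, 7.06 without RPP2, and a ratio of 5095 on 1 RPP count without EHK_RPP4 with a counting interval of 914 to 201248), and Vcam1, which binds leukocyte integrins, rose by 7.66 ± 0.85 (10.88 without EHK_RPP4). EHK_RPP4 held nearly all RPP counts of Cxcl1, Ccl7 and Vcam1, and none of these genes overlapped between the lines. Icam1, the other classical leukocyte adhesion target of NF-kB, was the member that fell, with 0.61, 0.689 and 0.312 CPM in RPP-A, against 5.63, 3.26 and 3.87 CPM in RPP (log2 fold change -2.95 ± 0.36).

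Ligands that T cells and NK cells read moved in both directions, with 8 rises and 2 falls among 11 tested genes. Cd274, which encodes PD-L1 and is itself induced by interferon in many cells, had 6.17, 4.59 and 4.12 CPM in RPP-A, against 31.6, 32.3 and 30.7 CPM in RPP. The RPP-A libraries all lay below the RPP libraries, and the log2 fold change was -2.67 ± 0.17 (adjusted p = 3.21e-06). Cd200, an inhibitory ligand for myeloid cells, fell with a log2 fold change of -4.92 ± 0.30. Fas, the death receptor, had 84.3, 83.2 and 104 CPM in RPP-A, against 0.652, 0.0693 and 0 CPM in RPP (log2 fold change 8.63 ± 0.45, a ratio of 2596 on 1 RPP count without EHK_RPP4 with a counting interval of 466 to 102573). Pvrl2 (nectin-2), a ligand of DNAM-1, rose by 2.67 ± 0.19, and Lgals9, a galectin that binds TIM-3, rose by 5.69 ± 0.37. Cd276 (B7-H3) had 63.2 against 67.4 CPM on average and was not called.

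Among 13 complement genes, 9 rose and 2 fell. C3, the central component, had 2165, 2236 and 2295 CPM in RPP-A, against 11.2, 0.277 and 0.141 CPM in RPP (log2 fold change 9.22 ± 1.36, 13.37 without EHK_RPP4), and EHK_RPP4 was well above RPP1 and RPP2. The classical pathway protease C1s1 had 551, 564 and 693 CPM in RPP-A, against 1.63, 0 and 0.0703 CPM in RPP (log2 fold change 10.15 ± 0.74, 9.55 without RPP1, and a ratio of 17281 on 1 RPP count without EHK_RPP4 with a counting interval of 3101 to 682572), and its partner C1ra had 240.1, 251 and 340.3 CPM in RPP-A, against 0.734, 0.208 and 0 CPM in RPP (log2 fold change 9.84 ± 0.47, a ratio of 2648 on 3 RPP counts without EHK_RPP4 with a counting interval of 906 to 12842). Cfb, of the alternative pathway, was at least 861-fold higher. Cd55, which protects a cell's own surface from complement, fell, with 0, 0.115 and 0.125 CPM in RPP-A, against 9.54, 5.26 and 5.34 CPM in RPP. Cd59a, another protector, had 14.9 against 11.7 CPM on average and was not called. Of MHC class II genes, 2 of 3 tested rose at low level. The invariant chain Cd74 had 13, 14.6 and 18.9 CPM in RPP-A and 2 counts in RPP.

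Neuroendocrine genes fell in RPP-A, from transcription factors to granules and synapses. Of 26 tested lineage factors, 21 fell and 5 rose, with a median of -4.26. Insm1, which represses non-endocrine genes, had 1.83, 2.12 and 0.687 CPM in RPP-A, against 261, 309 and 325 CPM in RPP. RPPM3 was the lowest of all libraries, and the log2 fold change was -7.58 ± 0.32 (adjusted p = 5.11e-07). Nkx2-1, a lung lineage factor, had 3.52, 3.39 and 0.687 CPM in RPP-A, against 431, 392 and 396 CPM in RPP (log2 fold change -7.32 ± 0.46). Neurod1, a factor of neuronal differentiation, had 0.474, 0.23 and 0.50 CPM in RPP-A, against 45, 42 and 41 CPM in RPP (log2 fold change -6.72 ± 0.21). Prox1, Foxa2 and Myt1 had log2 fold changes of -7.61, -7.89 and -8.09. Leaving out EHK_RPP4 moved the Insm1 value to -7.62.

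The lineage factors that rose were Rest, Yap1, Sox9, Sox4 and Id3. Rest, the repressor that silences neuronal genes outside the nervous system, had 87.4, 84.3 and 68.6 CPM in RPP-A, against 8.48, 1.73 and 1.9 CPM in RPP (log2 fold change 4.35 ± 0.51, 5.50 without EHK_RPP4). Yap1, the Hippo effector absent from most neuroendocrine small cell lung cancers, had 159, 161 and 159.9 CPM in RPP-A, against 9.54, 2.08 and 1.97 CPM in RPP (log2 fold change 5.18 ± 0.53, 6.35 without EHK_RPP4). For both genes EHK_RPP4 stood several times above the other RPP libraries and far below RPP-A. Sox9, a progenitor factor, rose by 5.05 ± 0.75 (7.04 without EHK_RPP4), Sox4 by 1.20 ± 0.18 and Id3 by 0.65 ± 0.22. The call of Id3 ended without RPPM1, RPPM2 or RPP1.

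Of 21 tested granule and neuropeptide genes, 19 fell, none rose, and the median was -7.08, or -7.03 with genes without counts at their bound. Chga, the core protein of dense-core granules, had 3.25, 3.04 and 1.31 CPM in RPP-A, against 325, 487 and 449.9 CPM in RPP (log2 fold change -7.37 ± 0.35). Ddc, which makes dopamine and serotonin from their amino acid precursors, had 4.0, 6.08 and 1.62 CPM in RPP-A, against 709, 1002 and 1064 CPM in RPP (log2 fold change -7.88 ± 0.48). Pcsk1n, an inhibitor of prohormone cleavage, fell with a log2 fold change of -7.76 ± 0.28 (-8.38 without RPPM1), and Ptprn2, a granule membrane protein, with -8.29 ± 0.31. The peptide-amidating enzyme Pam had 223, 220.4 and 253 CPM in RPP-A, against 165, 226 and 228 CPM in RPP, and Ptprn had 95.2, 100.3 and 78.8 CPM in RPP-A, against 105, 97.2 and 96.6 CPM in RPP. Neither of these granule genes was called.

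Of 29 synaptic vesicle and release genes, 28 fell and none rose. Syp, the vesicle protein used to diagnose neuroendocrine tumours, had 2.17, 2.7 and 2.5 CPM in RPP-A, against 182, 211 and 203 CPM in RPP (log2 fold change -6.33 ± 0.13). Snap25, a fusion protein of the release machinery, fell with a log2 fold change of -7.49 ± 0.42 (-8.68 without RPPM2), and Gad1, which makes GABA, with -7.62 ± 0.21. Stx1a was the member not called, with 14.2, 15.3 and 12.9 CPM in RPP-A, against 17.9, 11.3 and 11.3 CPM in RPP, and was called higher without EHK_RPP4 (log2 fold change 0.37). Summed over the list, vesicle and release genes had 342, 359 and 360.1 CPM in RPP-A, against 2967, 3379 and 3158 CPM in RPP.

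Neuronal cytoskeleton and RNA-binding genes fell in 24 of 29 members. The neuronal RNA-binding proteins Elavl3 and Elavl4 fell with log2 fold changes of -7.47 ± 0.42 and -7.30 ± 0.24, and Bex1 and Bex2 with -7.75 ± 0.21 and -8.04 ± 0.25. The 3 members that rose were the tubulins Tubb2b, with 49.6, 51.7 and 49.9 CPM in RPP-A, against 5.63, 2.7 and 2.11 CPM in RPP, and Tubb3, with 351, 358 and 328 CPM in RPP-A, against 142, 111 and 114 CPM in RPP, and Dpysl3, which rose by 1.25 ± 0.15. Voltage-gated channel genes fell in 24 of 29 members. Scn8a, a sodium channel, fell with a log2 fold change of -8.04 ± 0.23 and the calcium channel Cacna1d with -7.63 ± 0.39, while the large-conductance potassium channel Kcnma1 rose by 6.37 ± 0.30.

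Surface molecules of neuroendocrine cells fell in 15 of 16 members. Dll3, an inhibitory Notch ligand and the target of antibody drugs in this cancer, had 0, 0.23 and 0.0625 CPM in RPP-A, against 16.8, 27.4 and 28.1 CPM in RPP (log2 fold change -7.75 ± 0.49, with most RPP-A counts in RPPM2). Ncam1, the adhesion molecule CD56, fell less, with 177, 176 and 143 CPM in RPP-A, against 357, 400.2 and 397 CPM in RPP (log2 fold change -1.22 ± 0.12). The adhesion molecule Chl1 and the receptor Ret fell with log2 fold changes of -7.78 ± 0.19 and -7.43 ± 0.30. Cdh2, N-cadherin, had 187, 188 and 173 CPM in RPP-A, against 183, 214 and 189.6 CPM in RPP and was not called at -0.10 ± 0.10.

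Epithelial genes fell together with the neuroendocrine genes. All 14 tested epithelial regulators fell, with a median of -7.34 or, with genes without counts at their bound, -7.22, as did 25 of 28 junction and keratin genes. Cdh1, E-cadherin, had 3.73, 2.87 and 1.31 CPM in RPP-A, against 512, 534 and 504 CPM in RPP (log2 fold change -7.62 ± 0.33). Epcam had 3.25, 1.95 and 1.31 CPM in RPP-A, against 649, 683 and 708 CPM in RPP (log2 fold change -8.30 ± 0.31), and Krt8, a simple-epithelium keratin, had 0.813, 1.15 and 0.375 CPM in RPP-A, against 292, 309 and 283 CPM in RPP (log2 fold change -8.54 ± 0.26). Esrp1, which directs epithelial splicing, had 1.15, 1.38 and 0.437 CPM in RPP-A, against 394, 349 and 371 CPM in RPP (log2 fold change -8.53 ± 0.29). Grhl2 and Spint2 fell with log2 fold changes of -8.02 ± 0.30 (-9.03 without RPPM1) and -8.01 ± 0.23, and Ovol2 had no count in RPP-A, at least 68.3-fold lower. The exceptions were Krt14, a basal-cell keratin, with 7.52, 8.04 and 8.5 CPM in RPP-A, against 0.163, 0.0693 and 0.0703 CPM in RPP, and Cldn12, with 94.8, 99.6 and 119.9 CPM in RPP-A, against 17, 21.5 and 18.8 CPM in RPP, which both rose. The desmosome plate gene Pkp2 had 16.1 against 16 CPM on average and was not called.

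Transcription factors of the epithelial to mesenchymal transition rose in 10 of 11 cases. Zeb1, a repressor of Cdh1, had 78.8, 80.4 and 61.5 CPM in RPP-A, against 9.22, 20.5 and 20.5 CPM in RPP (log2 fold change 2.13 ± 0.28), and EHK_RPP4 was below the other RPP libraries. Its relative Zeb2 had 213, 212 and 181 CPM in RPP-A, against 4.24, 4.29 and 3.09 CPM in RPP (log2 fold change 5.70 ± 0.16). Prrx1, a factor of mesenchymal progenitors, had 642, 639 and 714 CPM in RPP-A, against 12.7, 1.39 and 1.55 CPM in RPP (log2 fold change 7.03 ± 0.84, 8.86 without EHK_RPP4). Snai1, Snai2 and Twist1 rose by 5.12 ± 0.33 (5.78 without EHK_RPP4), 3.84 ± 0.28 and 4.96 ± 0.41 (5.81 without EHK_RPP4), while Snai3 fell, with 0.0678, 0.0574 and 0 CPM in RPP-A, against 4.32, 4.09 and 4.78 CPM in RPP.

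Mesenchymal markers rose in 25 of 28 members, with a median of 6.12, or 6.76 without EHK_RPP4. Vim, the intermediate filament of mesenchymal cells, had 2220.5, 2314 and 2226 CPM in RPP-A, against 71.4, 14.2 and 14.2 CPM in RPP (log2 fold change 6.09 ± 0.73, 7.35 without EHK_RPP4). Acta2, smooth muscle actin, had 1697, 1749 and 2502 CPM in RPP-A, against 1.14, 0.277 and 0.141 CPM in RPP (log2 fold change 11.94 ± 0.57, 13.20 without EHK_RPP4), and Postn, a matrix protein, had 4903, 4948 and 4046 CPM in RPP-A, against 18.5, 2.91 and 3.16 CPM in RPP (log2 fold change 9.16 ± 0.88, 10.62 without EHK_RPP4). The lowest RPP-A library exceeded the highest RPP library many times over for each. The members that fell were Spock1, with 1.22, 0.976 and 0.375 CPM in RPP-A, against 142, 116 and 115 CPM in RPP, and Nt5e, which encodes CD73 and is used as a marker of mesenchymal stromal cells, with 2.98, 3.62 and 3.31 CPM in RPP-A, against 231, 208 and 230.1 CPM in RPP.

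Markers of fibroblasts and stroma stood beside these genes and moved with them. The list shares Pdgfra and Pdgfrb with the mesenchymal markers and Col1a1, Col1a2 and Col3a1 with the collagens. It also shares Dcn, Fbln1, Fbln2, Lum and Mfap5 with the matrix glycoproteins, so these lists are not independent. Of 14 tested markers, 12 rose and 1 fell, and their summed level was 31868, 32453 and 24200.5 CPM in RPP-A, against 547, 144 and 151 CPM in RPP. Col1a1 had 12025, 12429 and 8177 CPM in RPP-A, against 141, 20.9 and 20.7 CPM in RPP (log2 fold change 7.48 ± 0.95, 9.07 without EHK_RPP4), Dcn averaged 1320.0 ± 189.9 CPM in RPP-A and 8.1 ± 8.47 CPM in RPP and Mfap5 had 63.9, 64.9 and 62.7 CPM in RPP-A, against 0.0816, 0 and 0 CPM in RPP. Thy1, a surface marker of many fibroblasts, was the member that fell, with 0.0678, 0 and 0.0625 CPM in RPP-A, against 1.79, 1.66 and 1.55 CPM in RPP. Pi16 had 1.68 against 1.85 CPM and was not called. Whether stromal cells in the RPP-A cultures had a part in the rise of mesenchymal, matrix and interferon genes was not tested.

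Most defining markers of other cell types had few counts. The leukocyte marker Ptprc (CD45) had 0 counts in RPP-A and 5 in RPP, and the T cell gene Cd3e had 0 in both lines. Of 18 leukocyte markers, 14 did not pass the filter, and the list summed to 36.3, 40.2 and 37.7 CPM in RPP-A, against 38.7, 25.5 and 27.3 CPM in RPP. Cd14 accounted for most of the RPP-A sum, at 30.3, 34.1 and 32.2 CPM, and Coro1a for most of the RPP sum, at 35.1, 22 and 23.9 CPM. The endothelial cadherin Cdh5 had 0 counts in RPP-A and 1 in RPP, Pecam1 averaged 0.989 against 0.64 CPM, and Eng, which stromal cells express too, rose to 217, 224 and 212 CPM in RPP-A, against 4.32, 0.693 and 0.281 CPM in RPP. Eng was the 1 rise among 6 tested endothelial markers, of which 3 fell, and the list median was -1.48. The rises and falls were 16.7% and 50% of these markers, where all tested genes had 37.6% and 40.6%. Sftpc, of alveolar type 2 cells, had 0 counts in RPP-A and 40 in RPP. Of 5 tested lung epithelial markers, 2 rose and 3 fell, or 40% and 60% against the same 37.6% and 40.6%. Of the tuft cell markers, Pou2f3, which defines tuft-like small cell lung cancer, had 2 and 1, and the 2 that passed the filter rose, Dclk1, which neurons express too, with 268, 256 and 281 CPM in RPP-A, against 62.8, 55.4 and 51.1 CPM in RPP, and Avil with 30.5, 34.7 and 13.5 CPM in RPP-A, against 2.2, 2.77 and 3.73 CPM in RPP.

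Of 32 tested collagen genes, 21 rose and 7 fell, and their summed level was 38997, 39685 and 28316 CPM in RPP-A, against 1353, 781 and 753 CPM in RPP. RPPM3 was lower than its sister libraries for this sum. Of the fibrillar collagens, Col1a2, Col3a1, Col5a1 and Col5a2 rose by 6.98, 7.15, 6.89 and 6.86, and by 8.52, 8.04, 8.13 and 7.67 without EHK_RPP4. Col9a2, a cartilage-type collagen, fell, with 0.678, 0.861 and 0.125 CPM in RPP-A, against 112, 133 and 136 CPM in RPP. Among matrix glycoproteins, proteoglycans and crosslinkers, a list that shares 6 genes with the mesenchymal markers, 38 of 47 rose and 8 fell. The crosslinking enzyme Lox had 3075, 3027 and 3778 CPM in RPP-A, against 33.7, 4.36 and 4.43 CPM in RPP (log2 fold change 7.87 ± 0.96, 9.59 without EHK_RPP4), and its relative Loxl1 rose by 8.05 ± 0.46 (9.37 without EHK_RPP4). Among the falls were Tnr, a glycoprotein of neural matrix, at -6.49 ± 0.58 (-5.86 without EHK_RPP4), Thbs4 at -7.02 ± 0.34 and Gpc3 at -6.44 ± 0.32.

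Laminins rose in 7 of 9 cases, with Lama4 at 5.58 ± 0.43 (6.25 without EHK_RPP4) and Lamb1 at 5.47 ± 0.92 (7.56 without EHK_RPP4). Integrins rose in 12 of 19 and fell in 5, or 63.2% and 26.3% where all tested genes had 37.6% and 40.6%. Itga5, the fibronectin receptor chain, had 526, 539.9 and 422 CPM in RPP-A, against 17.8, 1.04 and 2.18 CPM in RPP (log2 fold change 6.18 ± 0.93, 8.31 without EHK_RPP4), and Itgav rose by 5.04 ± 0.38 (5.66 without EHK_RPP4). Itga6, a laminin receptor chain of epithelia, fell, with 53.1, 49 and 42.7 CPM in RPP-A, against 270.4, 236 and 238 CPM in RPP (log2 fold change -2.36 ± 0.12), and Itga4 fell with a log2 fold change of -7.60 ± 0.43 (with most RPP-A counts in RPPM1). Adaptor and actin-linking genes of focal adhesions rose in 27 of 29 members, with Flnc at 6.96 ± 0.81 (9.05 without EHK_RPP4) and Zyx at 3.18 ± 0.15. Fermt1, the epithelial kindlin, was the member that fell, with 0.0678, 0 and 0 CPM in RPP-A, against 2.28, 2.7 and 3.45 CPM in RPP. Contractile genes of smooth muscle, a list that shares 8 genes with the mesenchymal markers, rose in 18 of 21. Caveola genes rose in 6 of 6, led by Ehd2 at 6.42 ± 0.53 (7.43 without EHK_RPP4) and Ptrf at 5.96 ± 0.47 (6.70 without EHK_RPP4). Cav1, the defining caveolar protein, did not pass the filter, with 36 counts in RPP-A and 0 in RPP. Matrix proteases and their inhibitors rose in 25 of 34. The inhibitor Timp1 had 216, 220.2 and 207 CPM in RPP-A, against 1.71, 0.554 and 0.563 CPM in RPP (log2 fold change 7.87 ± 0.30, 8.61 without EHK_RPP4), and the sheddase Adam12 rose by 8.35 ± 0.35. Mmp15, a membrane-type protease, fell with a log2 fold change of -6.90 ± 0.20.

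**Figure D3:**
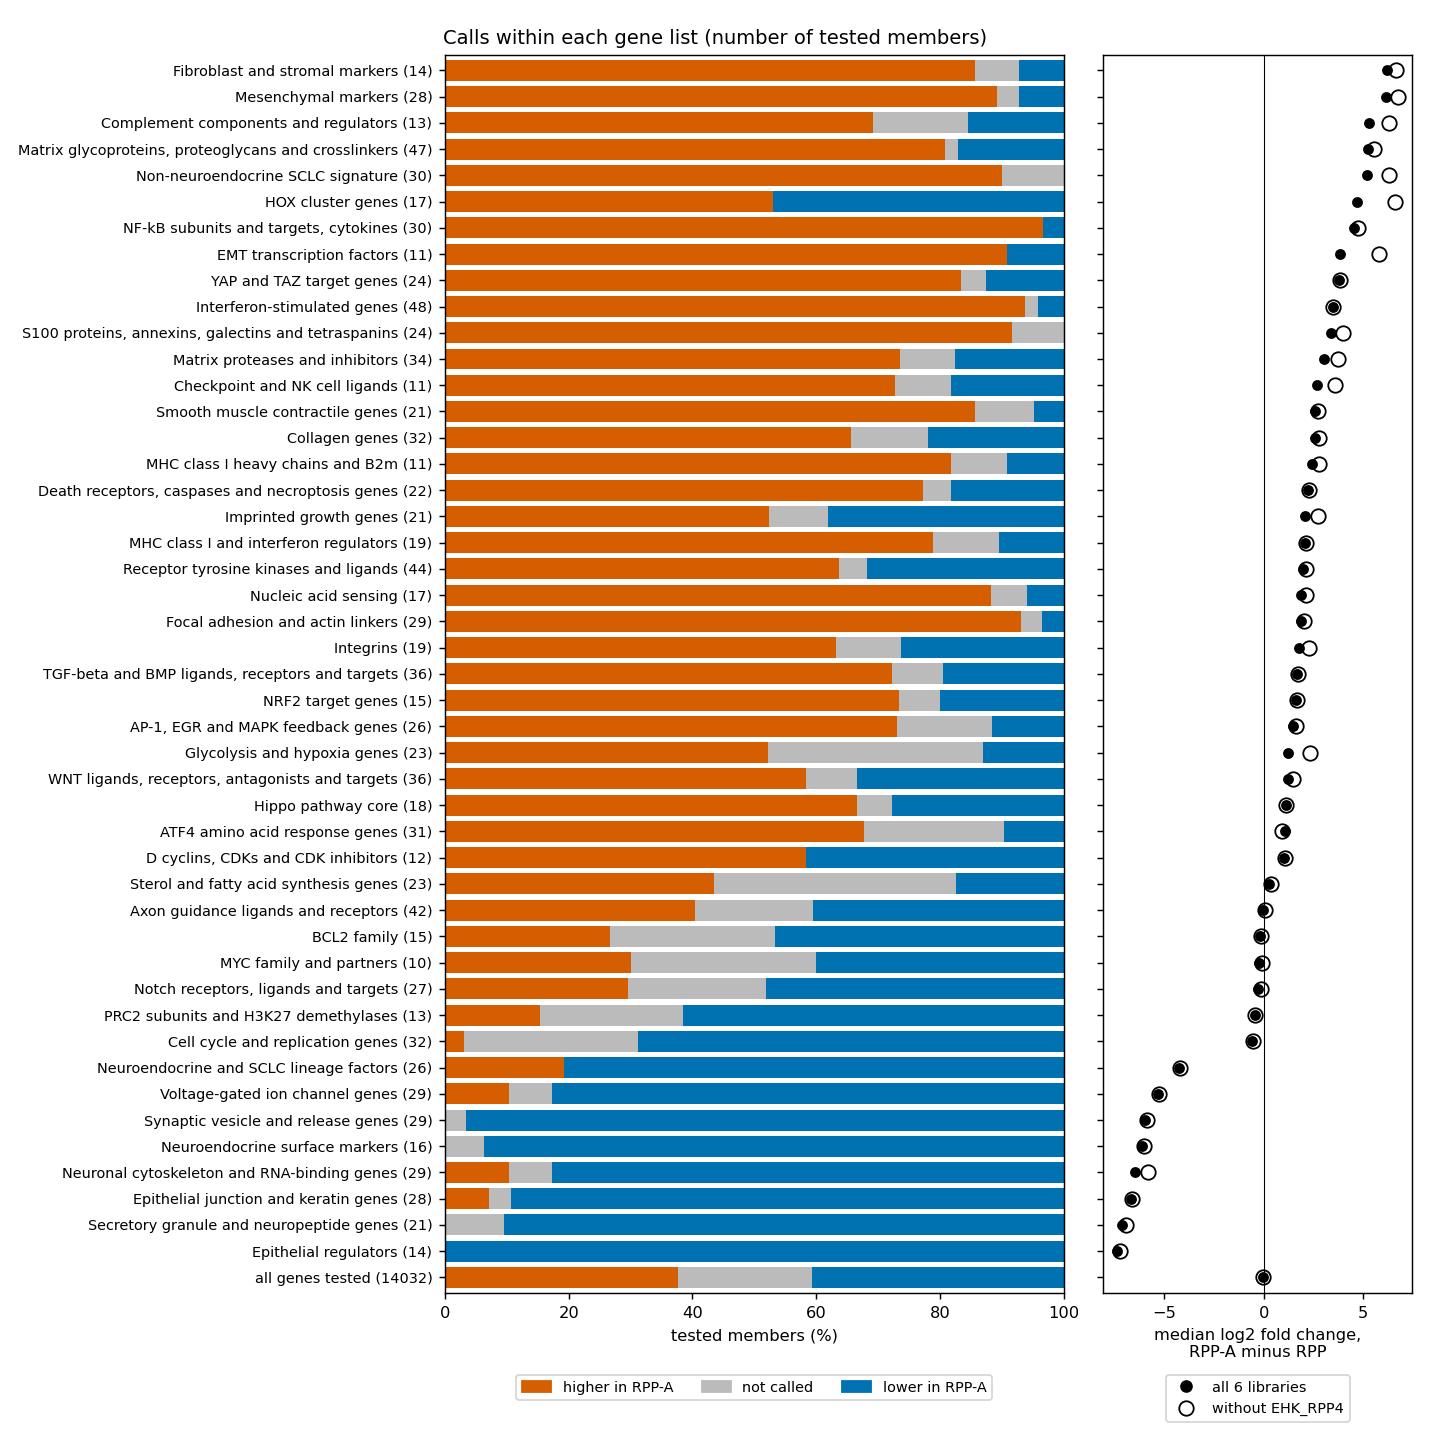
Left, share of tested members of each gene list with at least 10 tested members that were higher in RPP-A, not called or lower, in percent. Right, median log2 fold change with all 6 libraries (filled) and without EHK_RPP4 (open). Lists are ordered by the median, from fibroblast and stromal markers at the top to epithelial regulators near the bottom, with all 14032 tested genes in the bottom row.

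Of 18 core genes of the Hippo pathway, 12 rose and 5 fell, or 66.7% and 27.8% where all tested genes had 37.6% and 40.6%. Wwtr1, which encodes TAZ, had 232, 233 and 261 CPM in RPP-A, against 9.95, 1.8 and 2.46 CPM in RPP (log2 fold change 5.71 ± 0.56, 6.87 without EHK_RPP4), and the DNA-binding partner Tead2 rose by 3.85 ± 0.48 (4.80 without EHK_RPP4). Tead4 had 8.54, 8.55 and 11.7 CPM in RPP-A, against 0.408, 0.0693 and 0 CPM in RPP (log2 fold change 5.95 ± 0.55, a ratio of 275 on 1 RPP count without EHK_RPP4 with a counting interval of 49.2 to 10898), with nearly all RPP counts in EHK_RPP4, while Tead1 had 297 against 330.1 CPM on average and was not called. Target genes rose in 20 of 24 cases. Cyr61 had 269, 289 and 230.4 CPM in RPP-A, against 3.91, 1.18 and 0.844 CPM in RPP (log2 fold change 7.09 ± 0.45, 8.05 without EHK_RPP4), Ctgf rose by 6.97 ± 0.55 (8.68 without EHK_RPP4) and Ankrd1 by 8.22 ± 0.50 (10.03 without EHK_RPP4). The kinase Lats2, itself a target, rose by 5.53 ± 0.26, and Lats1 fell with a log2 fold change of -0.57 ± 0.12. Wwc1, an upstream activator, fell, with 9.69, 7.92 and 9.37 CPM in RPP-A, against 87.2, 103 and 100.5 CPM in RPP.

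Receptor tyrosine kinases moved in both directions. Of 44 kinases and ligands, 28 rose and 14 fell, or 63.6% and 31.8% where all tested genes had 37.6% and 40.6%. Axl, a receptor of attached, drug-tolerant tumour cells, had 1061, 1081 and 995 CPM in RPP-A, against 25.6, 3.46 and 4.78 CPM in RPP (log2 fold change 6.55 ± 0.80, 8.03 without EHK_RPP4). Its 3 RPP-A values lay close together, and EHK_RPP4 was above RPP1 and RPP2. Pdgfrb, of mesenchymal cells, rose by 5.66 ± 0.51 (6.49 without EHK_RPP4), the collagen receptor Ddr2 by 6.00 ± 0.45 (6.72 without EHK_RPP4), and Erbb2 by 6.25 ± 0.32 (6.96 without EHK_RPP4). Erbb3, the partner of Erbb2, had 0.339, 0.287 and 0.125 CPM in RPP-A, against 47.1, 23.9 and 27.8 CPM in RPP (log2 fold change -7.00 ± 0.43). Kit had 2.64, 3.33 and 1.25 CPM in RPP-A, against 277, 239.9 and 238 CPM in RPP and Ret had 3.05, 3.56 and 1.62 CPM in RPP-A, against 383, 522 and 519 CPM in RPP, both lower in all RPP-A libraries. Of the ligands, Hgf and Ereg rose by 5.96 ± 0.17 and 5.98 ± 0.56 (7.74 without EHK_RPP4), and Tgfa fell with a log2 fold change of -5.44 ± 0.22.

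Immediate early and MAPK feedback genes rose in 19 of 26 members. Fosl1, an AP-1 subunit of mesenchymal tumour cells, rose by 5.62 ± 0.72 (7.88 without EHK_RPP4), Egr1 by 3.14 ± 0.64 (4.27 without EHK_RPP4) and Etv4 by 3.33 ± 0.34. Fos and Atf3 fell, with -2.19 ± 0.57 (-1.22 without EHK_RPP4) and -2.20 ± 0.50 (-1.33 without EHK_RPP4). The list summed to 2253, 2288 and 2018 CPM in RPP-A, against 1324, 641 and 629 CPM in RPP, so EHK_RPP4 lay between RPP-A and the other RPP libraries.

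Notch genes moved in both directions. The receptors Notch1, Notch2 and Notch3 rose, with 218, 219 and 103 CPM in RPP-A, against 19.2, 5.19 and 5.7 CPM in RPP for Notch2, and log2 fold changes of 3.81 ± 0.47 (4.41 without EHK_RPP4), 4.19 ± 0.56 (5.09 without EHK_RPP4) and 6.49 ± 0.33 (7.32 without EHK_RPP4). Dll3, Dll4 and Dner were among the ligands that fell. Dner, a neuronal ligand, had 1.97, 2.64 and 0.937 CPM in RPP-A, against 267, 379 and 422 CPM in RPP, and Dll4 had no count in RPP-A, at least 82-fold lower. Jag1 had 25.8 against 22.2 CPM on average and was not called, and Dlk1, a non-canonical ligand, rose, with 210.1, 218 and 215 CPM in RPP-A, against 11.2, 1.39 and 1.2 CPM in RPP. The target Hes1 had 10.7, 9.87 and 4.19 CPM in RPP-A, against 10.3, 7.0 and 5.7 CPM in RPP. RPPM3 was the lowest of all 6 libraries, and Hes1 was not called at 0.11 ± 0.37, with a sign that turned under several alternatives. Hes5, another target, had no count in RPP-A and 89 counts in RPP, and Nrarp, a feedback target, fell with a log2 fold change of -7.19 ± 0.31 (-7.79 without RPPM1). Over the list, 8 members rose, 13 fell and 6 were not called. The rises and falls were 29.6% and 48.1% of members, where all tested genes had 37.6% and 40.6%.

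TGF-beta and BMP genes rose in 26 of 36 members. The co-receptor Tgfbr3 had 475, 474 and 401 CPM in RPP-A, against 4.49, 2.63 and 2.74 CPM in RPP (log2 fold change 7.11 ± 0.23), the BMP inhibitor Grem1 rose by 6.34 ± 0.55 (7.23 without EHK_RPP4), and the activin inhibitor Fst by 8.74 ± 0.29. Bmp7 fell with a log2 fold change of -6.22 ± 0.43, and the core genes Tgfbr1 and Smad2 were not called, at 128 against 143 CPM and 105 against 124 CPM on average. Of 36 WNT genes, 21 rose and 12 fell, or 58.3% and 33.3% where all tested genes had 37.6% and 40.6%. The secreted inhibitor Sfrp1 had 397, 408 and 331 CPM in RPP-A, against 1.55, 1.39 and 1.9 CPM in RPP (log2 fold change 7.87 ± 0.18). Axin2, a feedback target of beta-catenin signalling, had 2.03, 2.01 and 1.31 CPM in RPP-A, against 60.4, 42.6 and 41.4 CPM in RPP (log2 fold change -4.75 ± 0.24), and Lgr5, another target, fell with a log2 fold change of -4.44 ± 0.36. The receptor Fzd1 rose by 6.07 ± 0.27, Fzd3 fell with a log2 fold change of -4.91 ± 0.16, and Wnt3 had no count in RPP-A, at least 98.5-fold lower.

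HOX genes changed by cluster. All 9 tested genes of the Hoxa cluster rose and all 8 of the Hoxb cluster fell, and the other 22 of 39 listed genes did not pass the filter. Hoxa3 had 35.6, 36.4 and 28.1 CPM in RPP-A, against 1.55, 0 and 0.141 CPM in RPP (log2 fold change 5.98 ± 0.63, 5.38 without RPP1, and a ratio of 478 on 2 RPP counts without EHK_RPP4 with a counting interval of 132 to 3954), Hoxa2 had 15, 15.3 and 16.6 CPM in RPP-A, against 0.979, 0 and 0.0703 CPM in RPP (log2 fold change 5.57 ± 0.63, 4.97 without RPP1, and a ratio of 448 on 1 RPP count without EHK_RPP4 with a counting interval of 80.2 to 17733), and Hoxa4 had 11, 11.4 and 9.74 CPM in RPP-A, against 0.408, 0.139 and 0.0703 CPM in RPP. EHK_RPP4 held nearly all of the RPP counts of Hoxa3 and Hoxa2 and 5 of the 8 of Hoxa4, and RPP1 and RPP2 were at or close to 0. Hoxb6 had 16.1, 17.4 and 20 CPM in RPP-A, against 123, 132 and 129 CPM in RPP (log2 fold change -2.84 ± 0.11), and Hoxb5 had 23, 23.9 and 22 CPM in RPP-A, against 95.3, 194 and 186 CPM in RPP (log2 fold change -2.78 ± 0.27). Hoxb8, which also fell, still had 54.3, 55.8 and 76.3 CPM in RPP-A. HOX factors give cells their position along the body axis, and genes of a cluster lie side by side.

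**Figure D4:**
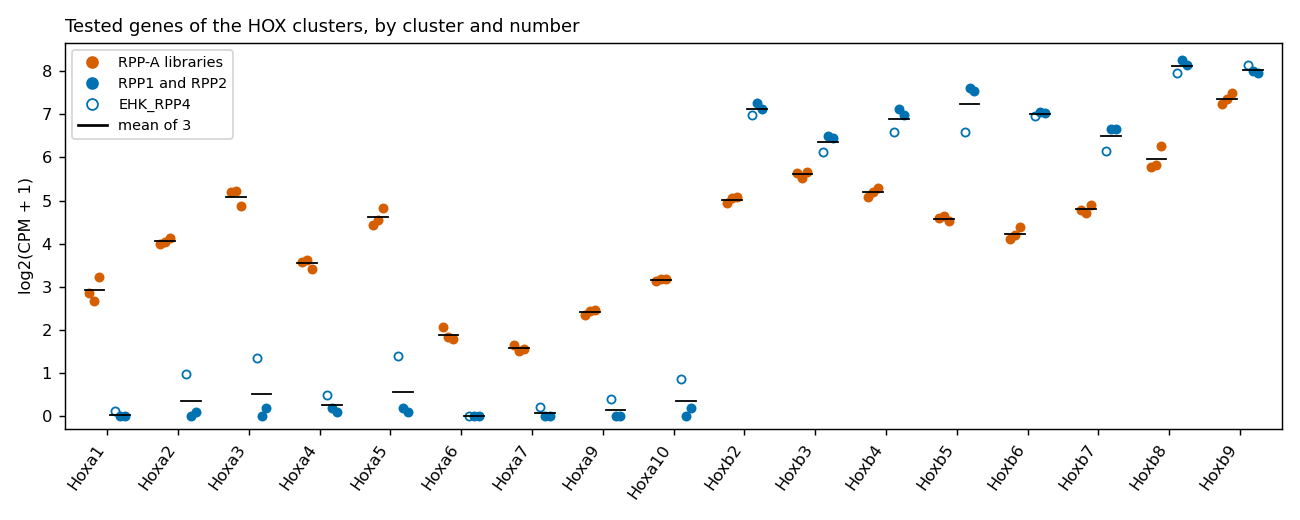
Level of the 17 tested HOX genes in each library as log2(CPM + 1), ordered by cluster and number, with RPP-A at the left of each gene and RPP at the right, EHK_RPP4 drawn open, and bars at means of 3 log2 values. The Hoxa genes are high in RPP-A and near 0 in RPP1 and RPP2, with EHK_RPP4 in between, while the Hoxb genes are lower in RPP-A in every library.

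Polycomb repressive complex 2 silences HOX and lineage genes by methylating H3K27. Of 13 genes for its subunits and for enzymes that remove the mark, 8 fell and 2 rose. Ezh2, the methyltransferase, had 94.1, 98 and 100.3 CPM in RPP-A, against 192, 189 and 197 CPM in RPP (log2 fold change -0.98 ± 0.08). Suz12 and Jarid2 fell with log2 fold changes of -1.09 ± 0.12 and -2.12 ± 0.11, and the demethylase Kdm6a with -1.71 ± 0.11. Ezh1, the other methyltransferase, and the demethylase Kdm6b were not called, at 33.8 against 31 CPM and 137 against 137 CPM on average. Without EHK_RPP4 both were called higher, at 0.25 and 0.66, which made 4 rises. Phf1 and Aebp2, accessory subunits, rose by 1.59 ± 0.17 and 1.39 ± 0.09.

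Imprinted and growth-related genes rose in 11 and fell in 8 of 21 members, shares near those of all genes for the falls. Igf2, a fetal growth factor, had 4.95, 5.62 and 3.75 CPM in RPP-A, against 417, 605 and 534 CPM in RPP (log2 fold change -6.76 ± 0.23), and Peg3 fell with a log2 fold change of -6.07 ± 0.19. Meg3 and Rian, noncoding transcripts of the Dlk1 locus, rose by 5.17 ± 0.31 and 5.52 ± 0.35, as Dlk1 did.

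Of 10 genes of the MYC family and its partners, 3 rose and 4 fell, shares near those of all tested genes. Mycl, the family member amplified in neuroendocrine small cell lung cancer, had 33.2, 35.9 and 59.9 CPM in RPP-A, against 289, 287 and 275 CPM in RPP (log2 fold change -2.72 ± 0.23), and Mycn had 0.271, 0.23 and 0.375 CPM in RPP-A, against 7.01, 7.62 and 5.41 CPM in RPP (log2 fold change -4.48 ± 0.29). Myc had 212, 227 and 237 CPM in RPP-A, against 21.8, 13.2 and 9.92 CPM in RPP (log2 fold change 3.92 ± 0.27, and 4.33 without EHK_RPP4). The partner Max rose by 0.57 ± 0.14, and Mnt, an antagonist, had 77 against 59.5 CPM on average and was not called.

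Cell cycle and replication genes fell in 22 of 32 members, rose in 1, and had a median of -0.56. With library totals, 29 fell. Mki67 had 342, 356 and 162 CPM in RPP-A, against 1609.5, 1064 and 882 CPM in RPP (log2 fold change -2.05 ± 0.35), E2f2 fell with a log2 fold change of -4.66 ± 0.17, and Ccne2, a cyclin of S-phase entry, with -2.62 ± 0.30. Of the mitotic genes, Ccnb1, Aurka and Foxm1 were not called, at 90.5 against 91.9 CPM, 102 against 100.2 CPM and 215 against 197 CPM on average, and Bub1b rose by 0.50 ± 0.14. The D cyclins, which drive the kinases that inactivate RB, all rose. Ccnd1 had 273, 266 and 349.5 CPM in RPP-A, against 15, 1.39 and 1.41 CPM in RPP (log2 fold change 5.68 ± 0.84, 7.77 without EHK_RPP4), and Ccnd2 and Ccnd3 rose by 6.21 ± 0.92 (8.30 without EHK_RPP4) and 3.25 ± 0.21. Of the inhibitors, Cdkn2b and Cdkn2a rose by 3.65 ± 0.17 and 1.62 ± 0.13, and Cdkn1a (p21), Cdkn1b (p27) and Cdkn1c (p57) fell with log2 fold changes of -3.15 ± 0.27, -0.87 ± 0.18 and -6.02 ± 0.15.

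For the genes that give RPP its name, gene counts cover exons outside any deleted part, so they do not check the deletions. Rb1 had 4.81, 6.83 and 4.93 CPM in RPP-A, against 31.3, 32.5 and 35 CPM in RPP (log2 fold change -2.57 ± 0.16). Rbl2, which encodes p130, had 54.8, 53.5 and 53.2 CPM in RPP-A, against 3.59, 2.7 and 2.53 CPM in RPP (log2 fold change 4.20 ± 0.14). They moved in opposite directions, and their groups did not overlap. Trp53 had 22, 23.8 and 18.9 CPM in RPP-A, against 24.1, 17.5 and 16.2 CPM in RPP, overlapping between the lines, and was not called at 0.17 ± 0.18. Its relatives split, with Trp63, a basal epithelial factor, at 10.2, 10.7 and 21.8 CPM in RPP-A, against 0.0816, 0.139 and 0.0703 CPM in RPP and Trp73 at 0.339, 0.918 and 0.125 CPM in RPP-A, against 29.4, 31.8 and 35.8 CPM in RPP.

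Death receptors, caspases and necroptosis genes rose in 17 of 22 members, with Casp1, an inflammatory caspase, at 6.76 ± 0.22 and Ripk3, the necroptosis kinase, with 133, 143 and 136 CPM in RPP-A, against 3.75, 0.346 and 0.844 CPM in RPP (log2 fold change 6.45 ± 0.52, 7.88 without EHK_RPP4). Casp9, the initiator caspase of the mitochondrial pathway, fell with a log2 fold change of -1.18 ± 0.09. In the BCL2 family, 4 rose, 7 fell and 4 were not called, or 26.7% and 46.7% in each direction where all tested genes had 37.6% and 40.6%. Bak1 rose by 2.63 ± 0.11, Bcl2l1 (BCL-XL) fell with a log2 fold change of -1.28 ± 0.09, and Bcl2, the target of venetoclax, had 33.9 against 29.6 CPM on average and was not called. Hrk, a killer of neurons, had no count in RPP-A, at least 69.9-fold lower.

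The glycolysis list depended on EHK_RPP4. Of 23 tested glycolysis and hypoxia genes, 12 rose with all libraries, against 21 of 24 tested without EHK_RPP4, and the median moved to 2.32 without it, against 1.22 with it. Without RPPM3, 8 were called higher. Hk2, hexokinase 2, had 177, 181 and 158 CPM in RPP-A, against 51.3, 3.12 and 3.8 CPM in RPP. Aldoa, aldolase, had 1071, 1108 and 1324 CPM in RPP-A, against 937, 104 and 102 CPM in RPP, and Ldha, lactate dehydrogenase, had 1429.7, 1434 and 1646 CPM in RPP-A, against 1498, 208 and 225 CPM in RPP. EHK_RPP4 reached about the RPP-A level for Aldoa and Ldha, and RPP1 and RPP2 were several times lower. Aldoa was not called with all libraries, at 1.62 ± 0.83, and was called at 3.55 without EHK_RPP4. Bnip3, a hypoxia target, had 107, 103 and 178 CPM in RPP-A, against 198, 20.6 and 23.1 CPM in RPP, so EHK_RPP4 was the highest of all 6. P4ha1 and P4ha2, collagen prolyl hydroxylases, were called in the fit of all libraries, at 2.72 ± 0.56 (3.80 without EHK_RPP4) and 3.20 ± 0.52 (4.17 without EHK_RPP4). Aldoc fell, with 3.46, 3.56 and 5.81 CPM in RPP-A, against 42.2, 13.9 and 13.8 CPM in RPP.

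Genes of the ATF4 amino acid response rose in 21 of 31 members. Slc7a11, the cystine transporter, rose by 3.66 ± 0.28, Cebpb by 3.96 ± 0.10 and Cth by 4.09 ± 0.19. The serine synthesis enzyme Phgdh had 82.3, 81.7 and 61.3 CPM in RPP-A, against 4.65, 22 and 23 CPM in RPP (log2 fold change 2.17 ± 0.48, and 1.78 without EHK_RPP4). EHK_RPP4 was the lowest library for it, and the list summed to 8596, 8717 and 8087 CPM in RPP-A, against 3114, 4733 and 4756 CPM in RPP. Asns, asparagine synthetase, had 418, 438 and 415 CPM in RPP-A, against 181, 353 and 357 CPM in RPP and was not called. Of sterol and fatty acid synthesis genes, 10 of 23 rose and 4 fell, or 43.5% and 17.4%. All tested genes had 37.6% and 40.6%, so the rises were near that share. With library totals, 7 rose and 7 fell, and the median turned to -0.11 where TMM gave 0.26. The falls were 6 without RPPM3. In this list the desaturase Scd1 rose by 3.52 ± 0.15. NRF2 targets rose in 11 of 15. Nqo1 had 89, 91.9 and 59.6 CPM in RPP-A, against 13.9, 2.08 and 3.31 CPM in RPP (log2 fold change 3.68 ± 0.59, 4.94 without EHK_RPP4), and Gclc, which makes glutathione, fell, with 53.4, 55.4 and 46 CPM in RPP-A, against 226, 255 and 245 CPM in RPP.

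**Figure D5:**
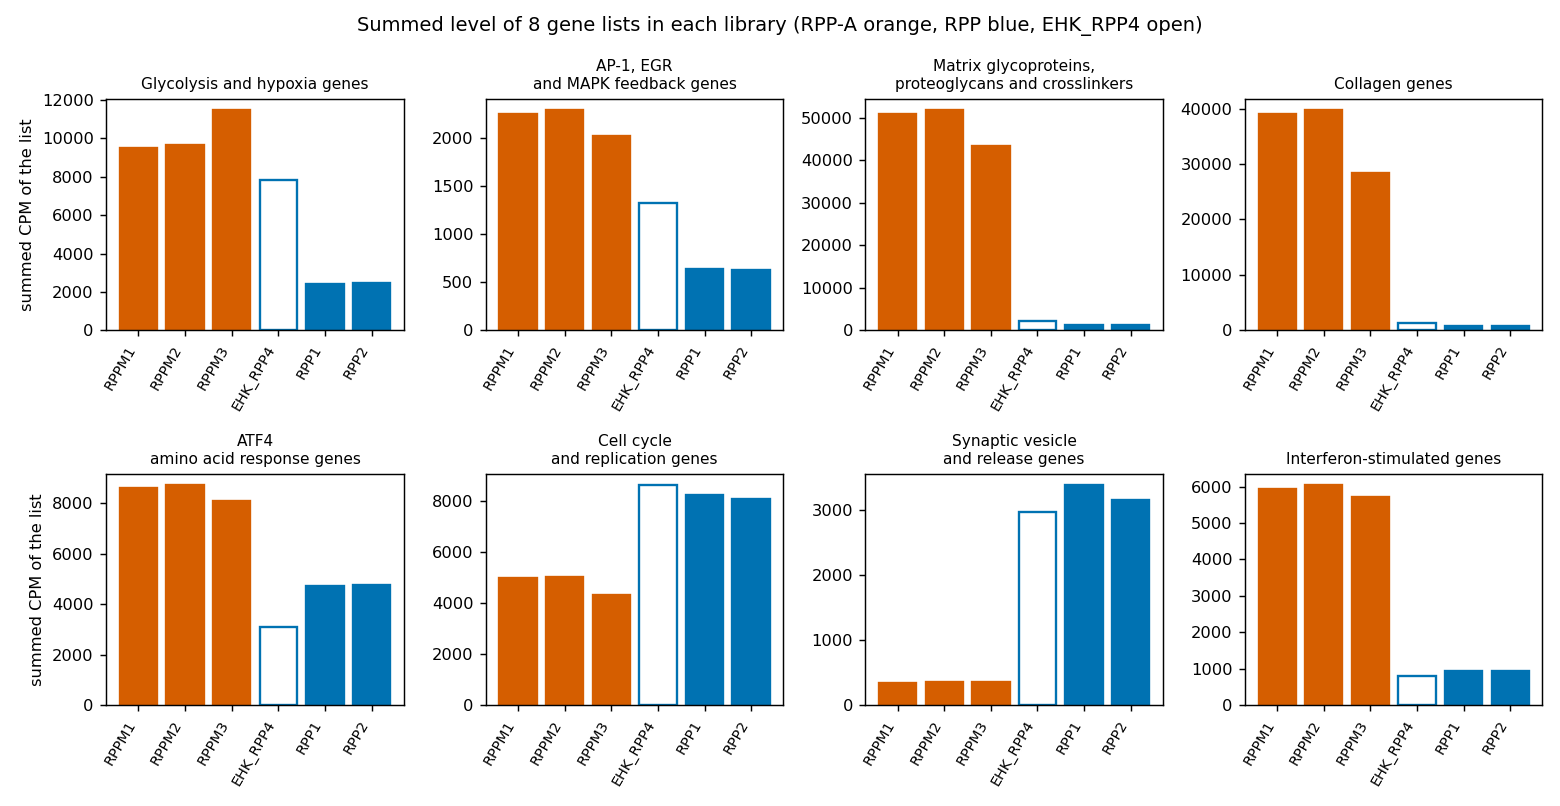
Summed CPM of 8 gene lists in each library, with RPP-A libraries at the left (orange), EHK_RPP4 open and RPP1 and RPP2 filled blue. For glycolysis and hypoxia genes and for immediate early genes EHK_RPP4 lies between RPP-A and the other RPP libraries, for ATF4 genes it is the lowest, and for interferon-stimulated, synaptic and cell cycle genes it sits with RPP1 and RPP2.

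Over all tested genes, in a list or not, the 15 largest rises among well-expressed genes were taken by fitted log2 fold change. They included Steap4, a metalloreductase, with 201, 207 and 365 CPM in RPP-A and no RPP count (at least 3513-fold higher), Prelp, a matrix proteoglycan (at least 2827-fold higher), and Ms4a4d (at least 1463-fold higher). Acute-phase genes were among them: Saa3 had 547, 560.3 and 873 CPM in RPP-A, against 0.0816, 0 and 0.0703 CPM in RPP, and Hp, haptoglobin, had 414, 423 and 517 CPM in RPP-A, against 0.245, 0 and 0 CPM in RPP. Ptx3, a secreted pattern-recognition protein, had 165, 162 and 227 CPM in RPP-A, against 0.163, 0.0693 and 0 CPM in RPP. Actg2, Acta2, Cxcl5, Ifi44, Ifi204, Trim30a, Svep1, Sod3 and Dio3 made up the rest of the 15. The largest falls were Cntn3, a neural adhesion molecule, with 0, 0 and 0.125 CPM in RPP-A, against 69.2, 67.5 and 72.9 CPM in RPP, Myh14, with 0.136, 0.344 and 0.187 CPM in RPP-A, against 179.9, 124 and 106 CPM in RPP, Ap1m2, which sorts proteins in epithelial cells, and Arhgef16. Sox1, Syt9, Igsf21, Bcl11b and Pclo, genes of neural cells, Dsp, Krt8, Esrp1 and Map7, genes of epithelia, and Aldh1a7 and Mctp2 completed the 15.

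EHK_RPP4 differed from RPP1 and RPP2 in genes of which several also differed between the lines, where 78.2% of all tested genes were called. Its 10 highest genes against them included Ptgs2, with 252, 248 and 257 CPM in RPP-A, against 25.9, 1.25 and 1.27 CPM in RPP, Bhlhe40, with 87.3, 87.4 and 81.8 CPM in RPP-A, against 65, 5.89 and 5.56 CPM in RPP, and the matrix genes Thbs2, Hspg2 and Loxl2. Aldoa, also among the 10 highest, was not called, and for Bnip3 EHK_RPP4 exceeded every RPP-A library. The 10 lowest of EHK_RPP4 included P2rx3, with 45.3, 52.3 and 61.3 CPM in RPP-A, against 2.61, 25.4 and 26.3 CPM in RPP, and the serine synthesis genes Phgdh and Psph. For these EHK_RPP4 lay farther from RPP-A than RPP1 and RPP2 did, while for Nov and Cox6a2, also among the 10 lowest, it lay nearer. Over the 330 genes that were called higher with a log2 fold change above 5 and a mean of at least 50 CPM in RPP-A, the median level in EHK_RPP4 was 2.14% of the RPP-A mean, against 0.559% in RPP1 and 0.570% in RPP2. Over the 331 genes that fell as far from at least 50 CPM in RPP, the median residual level was 0.851% and 0.901% of the RPP mean in RPPM1 and RPPM2 and 0.408% in RPPM3. These genes were chosen on the same contrast, so the percentages only describe how much of each line's programme was read in the other's libraries. The part of carried-over reads or cells in these levels was not tested.

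RPPM3 stood lower than RPPM1 and RPPM2 for Malat1, with 335, 335 and 82.6 CPM, Lrp1, with 1052, 1069 and 347 CPM, Dync1h1, with 373, 383 and 124 CPM, and Ahnak, with 599.6, 592 and 211 CPM. It stood higher for Ehf, with 8.81, 9.76 and 25 CPM, and for S100a11, with 167, 176 and 335 CPM. Xist had 494, 486 and 176 CPM in RPP-A, against 1508, 1403 and 1378 CPM in RPP, and the Y-linked genes Ddx3y, Kdm5d, Uty and Eif2s3y had at most 2 counts in either line's 3 libraries together.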

How the data were processed

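RNA of the 3 RPP-A and 3 RPP libraries was made into exome capture libraries from 250 ng of total RNA and sequenced on an Illumina NextSeq instrument, per the labels' protocols. STAR 2.6.1 and the build mm10 are named per the submitters' processing notes. The deposited table holds whole-number read counts per gene as the authors left them. Which program counted reads, with which annotation and whether by strand is not given in the sources used here. Overlapping genes, antisense genes and near-identical relatives are therefore uncertain. Each column was placed in a group by its name, with RPPM read as RPP-A, and no column could be tied to a numbered replicate.

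Genes were kept by filterByExpr at a minimum count of 10, scaled by TMM and tested with the quasi-likelihood method of edgeR 4.0.16 in R 4.3.3. The test was two-sided, p-values were adjusted by Benjamini-Hochberg over the 14032 tested genes with a threshold of 0.05, and the SE was the size of the log2 fold change over the square root of F. The common biological coefficient of variation was 0.157. The script was tested on simulated counts in which 200 genes were changed, evenly up and down. That run did not test the scaling where most genes differ, as they do here. A fold against a group with no count was taken against a floor of 3 counts over that group. Ratios on 1 to 3 counts carry exact binomial 95% intervals, and intervals and floors cover counting error only.

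The 57 lists hold 3 to 49 genes each, and 2 listed symbols are not analysed here. Some lists share genes. The comparison, the lists and the rule for named genes were chosen with earlier results of these data known. Named genes are a panel of 38 known genes, some of them not reported here, the 15 largest rises and falls at or above the median level, up to 6 rises and 6 falls of largest fold in a list with its uncalled members, and the 10 genes farthest from the sister libraries in each direction in EHK_RPP4 and RPPM3. Xist and the Y-linked genes were chosen after their values were seen. Alternatives were DESeq2 1.42.0, limma 3.58.1, other scalings and filters, and left-out libraries. No mouse genome was used, so no sequences or coordinates are given.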

Additional observations from a re-analysis of the deposited data

How the results depend on the processing

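The count of called genes kept within 1.5 times of its value under every alternative but 1: requiring at least 2-fold left 7016 genes, 3218 higher and 3798 lower. Leaving out each library in turn gave 10368 to 11501 called genes, 4917 to 5680 higher and 5393 to 5821 lower. With EHK_RPP4 and RPPM3 left out together, 12534 genes were called. That fit rests on near-alike libraries, with 0 genes over 2-fold apart between RPPM1 and RPPM2 and 1 between RPP1 and RPP2. DESeq2's Wald test called 10945 genes and limma-voom 11066. No gene called both with the settings of the report and under an alternative changed its direction.

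Of log2 fold changes printed for named genes, 3529 recomputed values kept direction and call, 25 lost the call, 13 gained it and 13 changed sign. Library totals in place of TMM, which lower every log2 fold change, turned -0.25 for Hes1, -0.10 for Psmb7 and -0.20 for Trp53. Hes1 was also -0.018 with RPPM1 and RPPM2 summed as 1 library, and -0.11 to 0.44 over the left-out libraries. Psmb6 was 0.00274 without a filter on low counts, 0.014 without Rn45s, 0.033 with RPPM1 and RPPM2 summed, and -0.048 to 0.039 over the left-out libraries. Of these genes, Psmb7 alone was called as reported, and the cause of its change is the scaling. Of 29 genes named by level and not called, 18 changed sign and 24 were called under at least 1 alternative.

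EHK_RPP4 moved most. Without it, 66 of 217 called named genes changed their fold over 1.5 times, 63 of them farther from 0, against 1 to 5 genes for any other library. Of 1824 recomputed list counts, 67 moved over 1.5 times. No paired analysis was possible because no column names the replicate number of its sample.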
